A study of Mus musculus with 4 samples.

Results

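Autophagy is the pathway by which a cell wraps part of its cytoplasm in a double membrane, the autophagosome, and delivers it to the lysosome. The ULK kinase complex starts the process, a class III phosphatidylinositol 3-kinase (PI3-kinase) marks the site of membrane growth, and ubiquitin-like conjugation reactions attach LC3 and GABARAP proteins to the membrane, where cargo receptors bind them. The kinase complex mTORC1, which is recruited to the lysosome through the Ragulator complex that Lamtor1 anchors, holds the ULK complex inactive when nutrients are plentiful.

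The genes described here are 33 autophagy genes listed by name. The list uses no measured value, but it was drawn up with earlier results of these data known. A probe with the listed name was present for 32 of them, out of 21938 genes on the array whose name is a RefSeq symbol or synonym. Vmp1, which encodes a membrane protein of autophagosome formation, is listed on the array under its older name Tmem49 and is given separately, outside the counts. Of the 32 genes, 21 had 1 probe and 11 had more, which made 44 probes in all. For a gene with several probes, the values are those of the brightest one, which has the highest mean log2 signal over the arrays.

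RNA was measured in bone marrow-derived macrophages (BMDMs) of C57BL/6J mice, 10 weeks of age, that had been grown for 6 days with L929 cell supernatant, a source of M-CSF, and then stimulated for 2 days. Wild-type M2 BMDMs received IL-4 at 50 ng per ml, and wild-type M1 BMDMs received IFN-γ at 20 ng per ml together with LPS at 100 ng per ml. Lamtor1-deficient BMDMs (genotype label p18 (2400001E08Rik) -/-) received IL-4 at the M2 concentration, as did wild-type BMDMs given Torin1, an inhibitor of mTOR kinase, at 250 nM. The methods describe the deficient mice as Lamtor1 flox/flox LysM-Cre, in which Cre acts in myeloid cells, and give flox/flox littermates as controls and purchased C57BL/6J mice as wild type. The study defines its wild-type BMDMs as grown from flox/flox marrow, and the array labels say only wild type. Each group was hybridized to 1 Agilent array in 1 colour, so no test was possible, no difference has a replicate check, and precision is limited by how few arrays there are. The 3 comparisons all use the same M2 array, so any error of that array enters each of them. Bulk RNA was measured, in which fewer cells of a type and less RNA per cell cannot be told apart.

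Values are normalized signals, which are the deposited processed intensity divided by the 75th percentile of that array, so that 1 is the signal of a probe at the 75th percentile. Ratios to M2 are given on the log2 scale, where 1 is a 2-fold difference, the threshold used for all counts. Spots of probes that occur at least 8 times gave a technical SD of a log2 ratio of 0.0878 for Lamtor1-deficient, 0.093 for Torin1-treated and 0.0997 for M1 BMDMs over M2, which covers variation between spots of an array and not between cultures. The 75th percentile lay between 287 in M1 and 595 in M2 in processed signal, and 50.9% to 55.4% of probes were well above background. The targeted gene, listed as 2400001E08Rik, had a normalized signal of 66.3 in M2, 1.55 in Lamtor1-deficient M2, 74.96 in Torin1-treated M2 and 51.2 in M1. All 8 macrophage markers on the array were well above background on all 4 arrays, with summed normalized signals of 799 in M2, 645 in Lamtor1-deficient M2, 661 in Torin1-treated M2 and 475 in M1. The largest share of that sum was Csf1r, at 485 in M2, and 2 of the markers were far lower without Lamtor1 and with Torin1: Fcgr1 was 31.1-fold and 24.4-fold below M2, and Emr1 (F4/80) 5.95-fold and 7.02-fold. The summed normalized signal of 5 M2 marker genes was 1362 in M2, 767 in Lamtor1-deficient M2, 587 in Torin1-treated M2 and 9.61 in M1. Retnla and Chi3l3 made up most of the M2 sum, at 672 and 488. Chi3l3 was 569 without Lamtor1 and 567 with Torin1, while the other 4 were 2-fold or more lower on both arrays. Arg1 was 64.6-fold and 141-fold below M2, and Retnla was not well above background with Torin1. In M1, Il10 was 27.1-fold above M2 and the other 4 were lower. The sum over 4 M1 marker genes was 731 in M1, 0.783 in M2, 18.9 in Lamtor1-deficient M2 and 16.5 in Torin1-treated M2. Nos2 carried most of it without Lamtor1 and with Torin1, 48.6-fold and 42.9-fold above M2. Cxcl10 was 5.34-fold and at least 10.9-fold below M2 on the same arrays. Markers of other cells moved with the groups: the sum over 5 neutrophil markers, 4 of them well above background in M2, was 10.6 in M2 and 0.397 to 0.722 on the other arrays, and the sum over 6 fibroblast markers was 43.4 in M2, 56.7 in Lamtor1-deficient, 15.5 in Torin1-treated and 16.2 in M1 BMDMs. Collagen genes made up most of the fibroblast sum in M2, and other markers in it differed more: Thy1, Dcn and Pdgfra were 3.98-, 3.77- and 2.74-fold above M2 without Lamtor1, and Dcn was 5.86-fold above M2 in M1. The sum over 6 lymphocyte markers ranged from 2.02 to 4.10. These sums leave out Elane, a neutrophil marker, and Cd4, a lymphocyte marker, whose spots were marked as outliers on the Torin1 array. On the other arrays Elane gave 12.4 in M2, 18.6 in Lamtor1-deficient M2 and 52.1 in M1, and Cd4 gave 9.52, 7.24 and 33.1, so both were highest in M1. The part of these cells in the values below was not tested.

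Optn, which encodes the cargo receptor optineurin, gave the highest ratio of the 32 genes in each comparison and was low in M2 alone. After Torin1, 10 of the 32 genes were 2-fold or more higher and 1 was lower, beside 13.6% and 12% of all genes on the array. After Lamtor1 loss, 4 genes were 2-fold or more higher and 2 lower, shares that were near the 8.99% and 8.33% of all genes. Atg16l1, which encodes the scaffold of the complex that places LC3 on the membrane, was more than 3-fold lower than in M2 on both of those arrays.

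**Figure D1:**
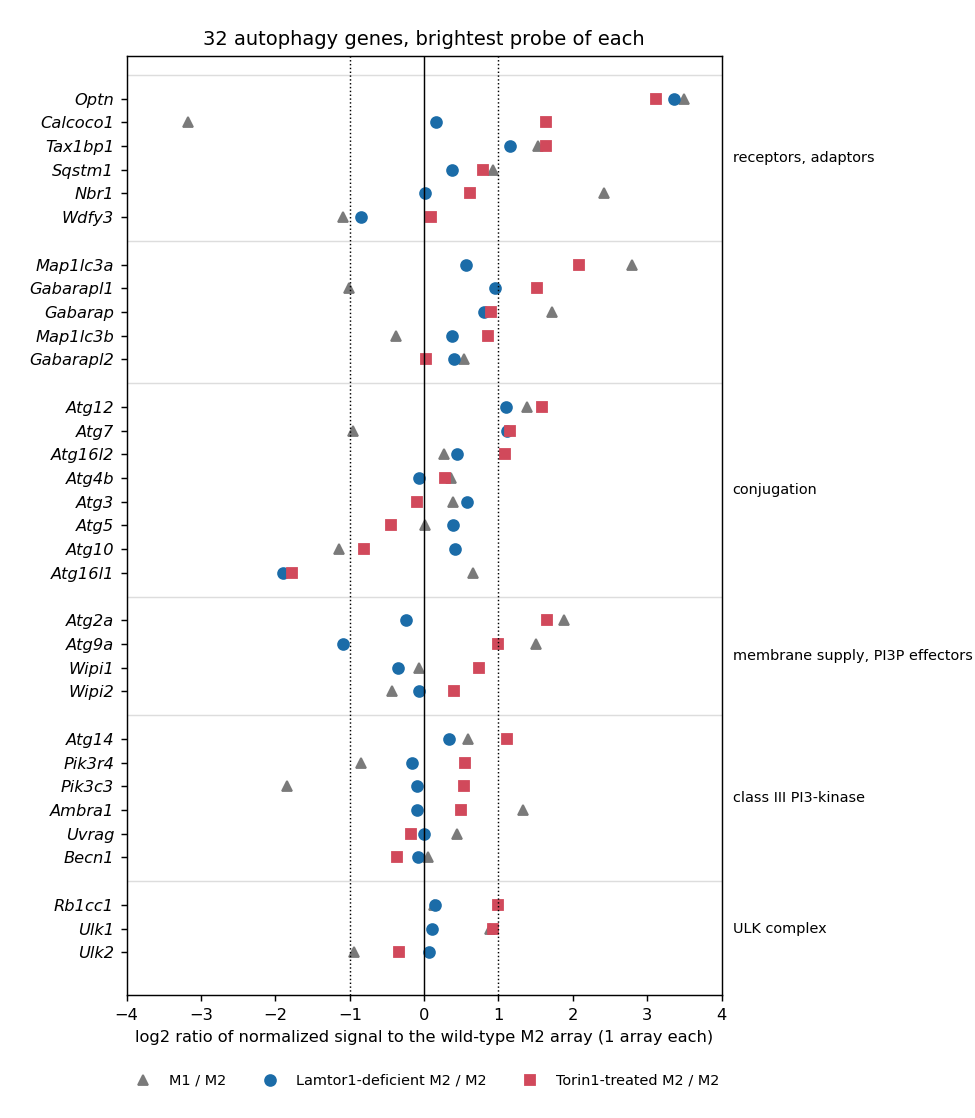
Log2 ratio of normalized signal to the wild-type M2 array (x axis) for the brightest probe of each of 32 autophagy genes (rows, grouped by role), with 1 point per array: Lamtor1-deficient M2 (circles), Torin1-treated M2 (squares) and M1 (triangles). Dotted lines mark 2-fold, the Calcoco1 point of M1 is a bound because the probe was not well above background there, and the 3 Optn points lie together at 3.12 to 3.50.

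The first comparison asks how the autophagy genes of IL-4-stimulated BMDMs differed when Lamtor1 was missing. The 4 genes that were 2-fold or more higher were Optn, Tax1bp1, Atg7 and Atg12, which is 12.5% of the 32. The background for that direction was 8.99% of all genes and 7.97% of the genes well above background on both arrays. The 2 lower genes were Atg16l1 and Atg9a, 6.25% of the 32, against a background of 8.33% of all genes and 7.47% of those well above background. Both shares were near their background, so the counts do not set these genes apart. The median log2 ratio of the 32 genes was 0.16, beside 0.04 over all genes and 0.09 over genes well above background on both arrays.

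The second comparison asks the same of mTOR inhibition. The 10 genes that were 2-fold or more higher with Torin1 were Optn, Map1lc3a, Atg2a, Calcoco1, Tax1bp1, Atg12, Gabarapl1, Atg7, Atg14 and Atg16l2. They were 31.2% of the 32, beside 13.6% of all genes and 11.2% of genes well above background on both arrays. Only Atg16l1 was 2-fold or more lower, 3.12% of the 32, beside 12% of all genes and 13.3% of genes well above background. The median log2 ratio was 0.76, beside -0.06 over all genes and 0.00 over genes well above background, and 25 of the 32 genes had a ratio above 0, beside 46.9% of all genes. Under 4 other scalings and background corrections, 7 of the 10 higher genes stayed past 2-fold, and Atg7, Atg14 and Atg16l2 did not in all of them.

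The third comparison sets M1 against M2. The 9 genes that were 2-fold or more higher in M1 were Optn, Map1lc3a, Nbr1, Atg2a, Gabarap, Tax1bp1, Atg9a, Atg12 and Ambra1, which is 28.1% of the 32. That share was near the background of 29.9% of all genes and 24.3% of genes well above background on both arrays. The 5 lower genes were Calcoco1, Pik3c3, Atg10, Wdfy3 and Gabarapl1, 15.6% of the 32, beside 19.9% of all genes and 25.8% of those well above background. The median log2 ratio was 0.38, beside 0.69 over all genes and 0.05 over genes well above background. The scaling matters most here: centring every array on its median moved the median of all genes by -0.82 and that of the 32 genes to -0.44, with 4 genes 2-fold or more higher and 10 lower. Optn, Map1lc3a, Nbr1 and Atg2a stayed 2-fold or more higher, and Calcoco1, Pik3c3 and Gabarapl1 lower, under that centring and the 3 other scalings and background corrections. The sign of the M1 ratio held for 22 of the 32 genes.

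**Figure D2:**
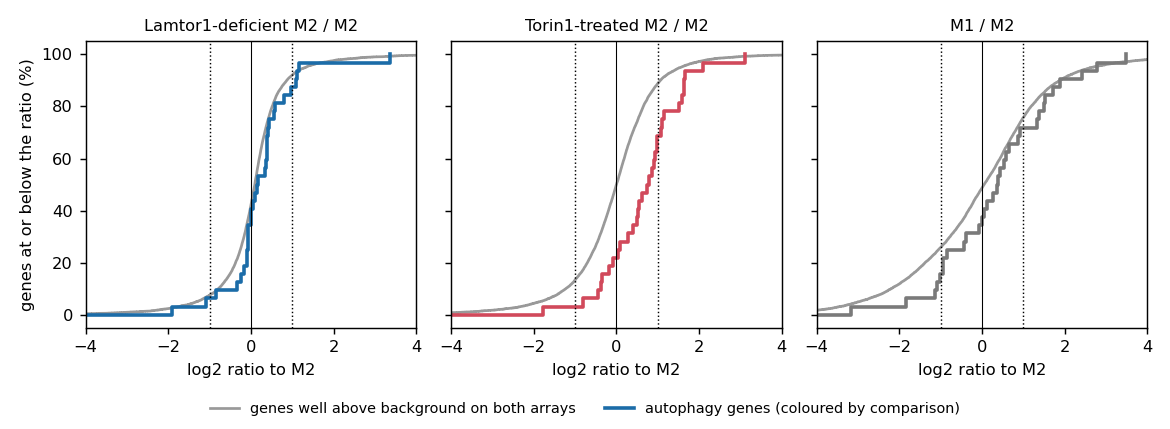
Share of genes (y axis, percent) at or below a given log2 ratio to M2 (x axis) for the 32 autophagy genes (coloured steps) and for all genes well above background on both arrays (grey), in 1 panel per comparison with dotted lines at 2-fold. The autophagy curve lies to the right of the grey one over most of the Torin1 panel, where the medians are 0.76 and 0.00, and close to it after Lamtor1 loss, where they are 0.16 and 0.09.

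Of the 32 genes, 14 were within 2-fold of M2 in all 3 comparisons, beside 38.0% of all genes. They were Ulk1, Ulk2 and Rb1cc1 of the ULK complex, Becn1, Uvrag and Pik3r4 of the PI3-kinase, the phosphoinositide-binding Wipi1 and Wipi2, the conjugation genes Atg3, Atg4b and Atg5, and Map1lc3b, Gabarapl2 and Sqstm1. Some of the 14 passed 2-fold in M1 by other readings: Ulk2, Pik3r4, Wipi2 and Map1lc3b with arrays centred on their medians, at -1.76, -1.67, -1.26 and -1.20, and Ulk2, Rb1cc1 and Wipi1 with their other probes. With Torin1, Ulk1 and Rb1cc1 reached 2-fold under quantile normalization and when the 75th percentile was taken from those probes alone that passed background on every array. All 32 were well above background on the 3 arrays of IL-4-stimulated cells, and 31 were on all 4.

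The ULK complex joins the kinases Ulk1 and Ulk2 with Rb1cc1 (FIP200), the large scaffold. Ulk1 had a normalized signal of 12.6 in M2, 13.6 in Lamtor1-deficient M2, 23.9 in Torin1-treated M2 and 23.3 in M1. It was therefore higher in the Torin1-treated and M1 BMDMs, with log2 ratios of 0.92 and 0.88, and within 0.11 of M2 after Lamtor1 loss. Its Torin1 ratio was just past 2-fold with quantile normalization, at 1.05, and with the 75th percentile taken over probes well above background on every array, at 1.01. With arrays centred on their medians it was 0.68, and the M1 ratio was 0.06.

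Ulk2 gave 2.61 in M2, 2.72 in Lamtor1-deficient M2, 2.06 in Torin1-treated M2 and 1.36 in M1. Its brightest probe was lower in M1 with a log2 ratio of -0.94, and its other probe gave -2.02 there. Rb1cc1 differed more between its probes. Its brightest, which spans an intron on chromosome 1 (mm9 chr1:6255674-6258809, plus strand), gave 0.901 in M2, 0.997 in Lamtor1-deficient M2, 1.79 in Torin1-treated M2 and 0.986 in M1. The other probe (mm9 chr1:6265434-6265493) gave 1.55, 1.44, 1.97 and 0.305 on the same arrays in that order. Both were higher after Torin1, by 0.99 and 0.34 on the log2 scale, and in M1 they disagreed, with 0.13 and -2.35. The Torin1 ratio of the brightest probe was 0.33 with normexp background correction, 1.00 with quantile normalization and 1.07 with the percentile from probes that passed background on every array. With normexp background correction the brightest probe itself gave -1.79 in M1, so no direction for Rb1cc1 in M1 can be read from these arrays.

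The class III PI3-kinase makes phosphatidylinositol 3-phosphate (PI3P). Its catalytic subunit is Pik3c3 (Vps34) and its regulatory subunit is Pik3r4 (Vps15), and they join Becn1 with either Atg14, in the complex that builds autophagosomes, or Uvrag, in one that acts in later trafficking. Ambra1 is a scaffold that binds Becn1. None of these 6 genes was 2-fold from M2 after Lamtor1 loss, where their log2 ratios ran from -0.16 to 0.34.

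Atg14 had a normalized signal of 2.95 in M2, 3.72 in Lamtor1-deficient M2, 6.35 in Torin1-treated M2 and 4.42 in M1. The Torin1-treated array was the highest, at a log2 ratio of 1.11 to M2, or 0.86 with arrays centred on their medians. Pik3c3 gave 2.50 in M2, 2.35 in Lamtor1-deficient M2, 3.61 in Torin1-treated M2 and 0.699 in M1, and the M1 array was 3.58-fold below M2. Its other probe gave -1.61 in M1 beside -1.84 for the brightest on the log2 scale, and both were above M2 after Torin1, with 0.73 and 0.53.

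Pik3r4, which had 10 spots on each array, was also lower in M1 and higher after Torin1, with log2 ratios of -0.85 and 0.56. Ambra1 stood the other way in M1. It gave 6.29 in M2, 5.89 in Lamtor1-deficient M2, 8.90 in Torin1-treated M2 and 15.8 in M1, a log2 ratio of 1.32 that was 0.50 with arrays centred on their medians. Becn1 and Uvrag stayed within 0.45 of M2 in every comparison, except that with arrays centred on their medians Becn1 was at -0.62 with Torin1 and -0.77 in M1. Uvrag was at -0.42 and -0.38 there. Before that centring they were the PI3-kinase genes below M2 after Torin1, at -0.37 and -0.17.

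Atg9a, a transmembrane lipid scramblase, and Atg2a, a lipid transfer protein, supply membrane to the growing autophagosome, and Wipi1 and Wipi2 bind PI3P on it. With their brightest probes, all 4 genes had log2 ratios below 0 after Lamtor1 loss and above 0 after Torin1, under the main scaling and under each of 4 other settings. Over all genes, 63.8% had ratios above 0 after Lamtor1 loss and 46.9% after Torin1 under the main scaling. Wipi2 was within the technical SD of M2 after Lamtor1 loss, at -0.06. The median of the 4 was -0.29 after Lamtor1 loss and 0.86 after Torin1.

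Atg9a (probe at mm9 chr1:75184260-75184319, minus strand) gave a normalized signal of 0.684 in M2, 0.321 in Lamtor1-deficient M2, 1.36 in Torin1-treated M2 and 1.95 in M1. It was lowest without Lamtor1, 2.13-fold below M2, and above M2 with Torin1, by 1.98-fold. With normexp background correction the ratio after Lamtor1 loss was within 2-fold, at -0.83 on the log2 scale. Atg2a gave 1.89 in M2, 1.60 in Lamtor1-deficient M2, 5.96 in Torin1-treated M2 and 6.93 in M1. The Torin1-treated and M1 arrays were both more than 3-fold above M2, at log2 ratios of 1.66 and 1.88, and the Lamtor1-deficient array was close to M2 at -0.24.

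Wipi1 stood at 1.08 in M2, 0.850 in Lamtor1-deficient M2, 1.80 in Torin1-treated M2 and 1.03 in M1. Its probes agreed after Lamtor1 loss, at -0.35 and -0.38, and disagreed in M1, at -0.06 for the brightest and 1.32 for the other. After Torin1 they gave 0.73 and -0.06. Wipi2 gave 1.96 in M2, 1.88 in Lamtor1-deficient M2, 2.60 in Torin1-treated M2 and 1.45 in M1 with its brightest probe, and 0.781, 0.960, 0.911 and 1.06 with the other. The probes disagreed in sign without Lamtor1, at -0.06 and 0.30 on the log2 scale, and in M1, at -0.44 and 0.45. The Tmem49 probe, which stands for Vmp1, gave 70.4 in M2, 47.9 in Lamtor1-deficient M2, 105 in Torin1-treated M2 and 129 in M1. It was below M2 without Lamtor1 and above M2 with Torin1, at -0.56 and 0.58 on the log2 scale.

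**Figure D3:**
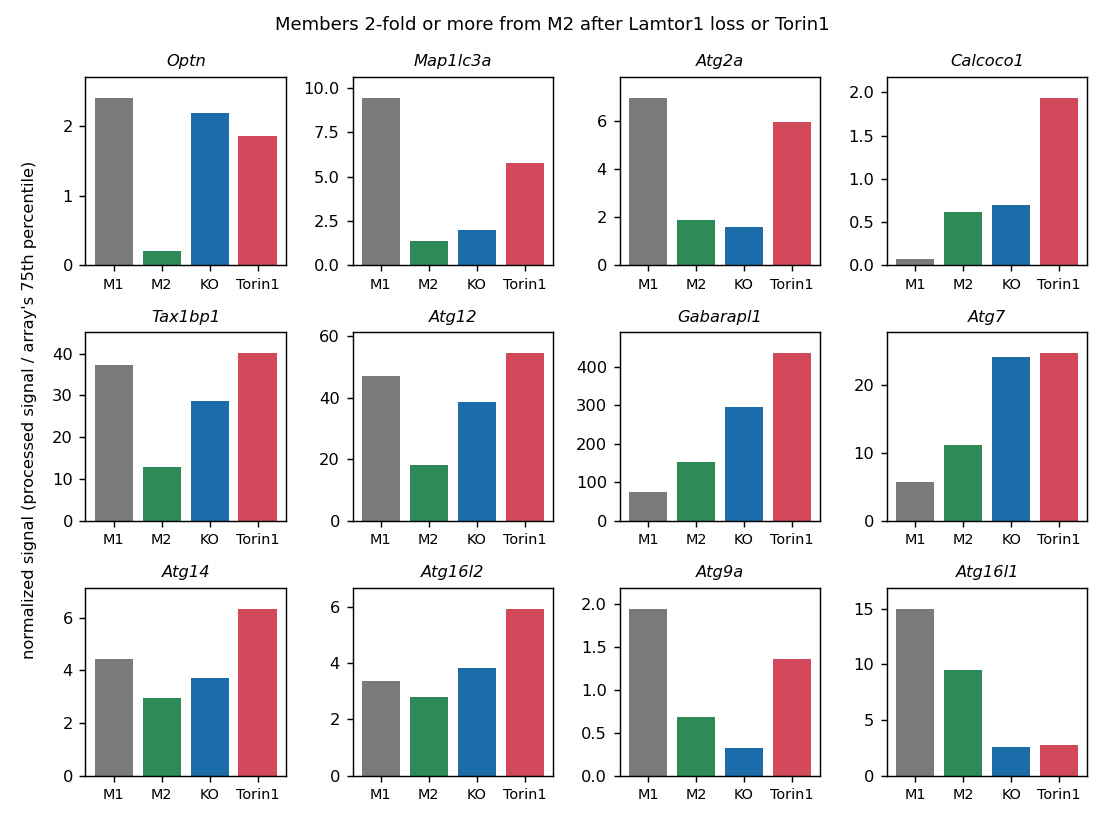
Normalized signal (processed signal over the 75th percentile of the array, linear y axis from 0) on each of the 4 arrays for the 12 genes that were 2-fold or more from M2 after Lamtor1 loss or Torin1, 1 bar per array and no error bars because each group has 1 array. Optn is low in M2 alone, at 0.213 against 1.85 to 2.41, and Atg16l1 is low in the Lamtor1-deficient and Torin1-treated arrays, at 2.55 and 2.77 against 9.50 in M2.

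Conjugation runs in linked steps. Atg7 is the activating enzyme, Atg10 passes Atg12 to Atg5, Atg3 passes LC3 and GABARAP proteins to their lipid, and Atg4b trims and recycles them. The Atg12-Atg5 conjugate binds Atg16l1, which directs lipidation to the right membrane, and Atg16l2 is its paralogue. The 8 genes did not move together: after Torin1, 4 had ratios above 0 and 4 below, Atg3 by less than the technical SD, with a median log2 ratio of 0.09 that was -0.16 with arrays centred on their medians.

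Atg16l1 (mm9 chr1:89688432-89688491, plus strand) had a normalized signal of 9.50 in M2, 2.55 in Lamtor1-deficient M2, 2.77 in Torin1-treated M2 and 15.0 in M1. It was 3.73-fold below M2 without Lamtor1 and 3.43-fold below with Torin1. Across 4 other scalings and background corrections the log2 ratios ran from -1.98 to -1.83 and from -2.03 to -1.69. The M1 array was above M2, by 0.66 on the log2 scale, and below it with arrays centred on their medians, at -0.16. A single probe carries these values. Its paralogue Atg16l2 gave 2.81 in M2, 3.83 in Lamtor1-deficient M2, 5.94 in Torin1-treated M2 and 3.38 in M1. It was highest with Torin1, at log2 ratios of 1.08 and 1.21 for its 2 probes.

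Atg12 had a normalized signal of 18.1 in M2, 38.7 in Lamtor1-deficient M2, 54.5 in Torin1-treated M2 and 47.2 in M1. M2 was the lowest of the arrays, and both probes placed the other 3 more than 2-fold above it, with log2 ratios of 1.097 and 1.16 after Lamtor1 loss, 1.59 and 1.65 with Torin1, and 1.38 and 2.25 in M1. The ratio after Lamtor1 loss was 0.94 with quantile normalization, and that of the brightest probe in M1 was 0.56 with arrays centred on their medians. Atg7 gave 11.1 in M2, 24.0 in Lamtor1-deficient M2, 24.6 in Torin1-treated M2 and 5.73 in M1 with its brightest probe. That probe was 2.17-fold and 2.22-fold above M2 in the Lamtor1-deficient and Torin1-treated arrays. The M1 log2 ratio was -0.95, and passed 2-fold lower with arrays centred on their medians, at -1.77, and with normexp, at -1.06. Its other probe stood at 2.03, 3.08, 2.23 and 2.30 in the same order of arrays, within 2-fold of M2 throughout, so the 2-fold calls of Atg7 rest on 1 of its 2 probes.

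Atg10 gave 1.38 in M2, 1.85 in Lamtor1-deficient M2, 0.790 in Torin1-treated M2 and 0.628 in M1. It was above M2 without Lamtor1 and below it with Torin1, at 0.42 and -0.81 on the log2 scale, and the other probe had the same signs at 0.63 and -0.48. With arrays centred on their medians the Torin1 ratio of the brightest probe was -1.06, past 2-fold. In M1 both probes were more than 2-fold lower, at -1.14 and -1.48. Atg5 also stood on opposite sides of M2 in those arrays, at 0.39 and -0.44. Atg3 was at 0.58 after Lamtor1 loss and within the technical SD of M2 after Torin1, at -0.09. Atg4b stayed within 0.37 of M2 in every comparison, except that in M1 it was at -0.45 with arrays centred on their medians and 0.43 with quantile normalization.

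Promoter sequence was examined because members of this pathway are known targets of transcription factors of the Tfeb family, which bind the CLEAR element TCACGTGA and its core CACGTG, and of FoxO factors, whose element includes GTAAACA. RefSeq promoter windows of GRCm38.p6, 250 bases before to 50 after the start, were available for 25 of the 32 genes. CACGTG, a palindrome, occurred in 4 of the 25 (16%), beside 8.09% of 27025 genes with a window. The longer TCACGTGA, which contains CACGTG, occurred in 1 (4%), beside 1.12%, and GTAAACA on either strand in 0, beside 4.05%. The 4 genes were Atg3, Atg5, Atg7 and Atg14, and 30 bases around each match are shown because 3 of these genes encode conjugation proteins, with CACGTG in capitals. The windows lie at chr16:45158723-45158752 and chr16:45158746-45158775 for Atg3, chr10:44268313-44268342 for Atg5 and chr6:114670952-114670981 for Atg7 on the plus strand, and at chr14:47568418-47568447 on the minus strand for Atg14, where the match overlaps the start.
Atg3 distal: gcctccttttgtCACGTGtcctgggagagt
Atg3 proximal: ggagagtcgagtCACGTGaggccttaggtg
Atg5: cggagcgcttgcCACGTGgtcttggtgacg
Atg7: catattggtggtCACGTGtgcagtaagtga
Atg14: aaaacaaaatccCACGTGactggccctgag
The proximal match of Atg3 is the one that extends to TCACGTGA. With Torin1 the log2 ratios of these 4 genes were -0.09, -0.44, 1.15 and 1.11 in the order Atg3, Atg5, Atg7 and Atg14, so Atg7 and Atg14 were 2-fold or more above M2, Atg5 was below it and Atg3 was within the technical SD of it. After Lamtor1 loss the ratios were 0.58, 0.39, 1.12 and 0.34, all above 0, as were those of 63.8% of all genes.

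The LC3 and GABARAP proteins are the ubiquitin-like tags that are attached to the autophagosome membrane, where they bind receptors and take part in closure. All 5 genes had a log2 ratio above 0 after Lamtor1 loss, with a median of 0.56 and none at 2-fold, where 63.8% of all genes were above 0. After Torin1 all 5 were again above 0, with a median of 0.90, where 46.9% of all genes were above 0 and their median was -0.06. However, Gabarapl2, at 0.03, was within the technical SD of M2 and turned to -0.22 with arrays centred on their medians and to -0.02 with normexp. Whether the probes cross-hybridize between these related genes was not examined.

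Map1lc3a (LC3A) had a normalized signal of 1.36 in M2, 2.00 in Lamtor1-deficient M2, 5.78 in Torin1-treated M2 and 9.42 in M1. M2 was the lowest array, and the Torin1-treated and M1 arrays were 4.25-fold and 6.93-fold above it. Map1lc3b (LC3B), the form most used to follow autophagy, gave 44.2 in M2, 57.4 in Lamtor1-deficient M2, 80.3 in Torin1-treated M2 and 34.1 in M1. Its order differed from that of Map1lc3a, since M1 was the lowest array, at a log2 ratio of -0.38. This probe had 10 spots on each array, with an SD between spots of 0.0795 on the log2 scale in M2 and 0.112 in M1.

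Gabarapl1 gave 152 in M2, 295 in Lamtor1-deficient M2, 436 in Torin1-treated M2 and 75.5 in M1. It was 2.87-fold above M2 with Torin1, 1.94-fold above without Lamtor1 and 2.01-fold below in M1. With arrays centred on their medians its log2 ratio without Lamtor1 was 1.02, past 2-fold. Gabarap gave 154 in M2, 269 in Lamtor1-deficient M2, 287 in Torin1-treated M2 and 507 in M1 with its brightest probe. In M1, where Gabarapl1 was lower, Gabarap was 3.29-fold above M2, or 0.90 on the log2 scale with arrays centred on their medians. Gabarapl2 stayed within 2-fold, at 0.40 without Lamtor1, 0.03 with Torin1 and 0.53 in M1 on the log2 scale. The M1 ratio turned to -0.29 with arrays centred on their medians.

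The 3 Gabarap probes did not agree. A second probe (mm9 chr11:69806095-69806154) behaved like the brightest, at 0.80 after Lamtor1 loss, 0.64 with Torin1 and 1.46 in M1 on the log2 scale. The third (mm9 chr11:69804812-69804871), which the array assigns to an Ensembl transcript, had a normalized signal of 0.671 in M2, 0.520 in Lamtor1-deficient M2 and 0.121 in Torin1-treated M2, and was not well above background in M1. It was 5.53-fold below M2 with Torin1 and at least 10.2-fold below in M1. Its 60 bases match the RefSeq promoter window of Gabarap at positions -60 to -1, just before the annotated start on the plus strand, and of the 33 probes whose gene had a window that was searched, it was the 1 found there. It therefore does not lie in the RefSeq transcript that starts there.

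**Figure D4:**
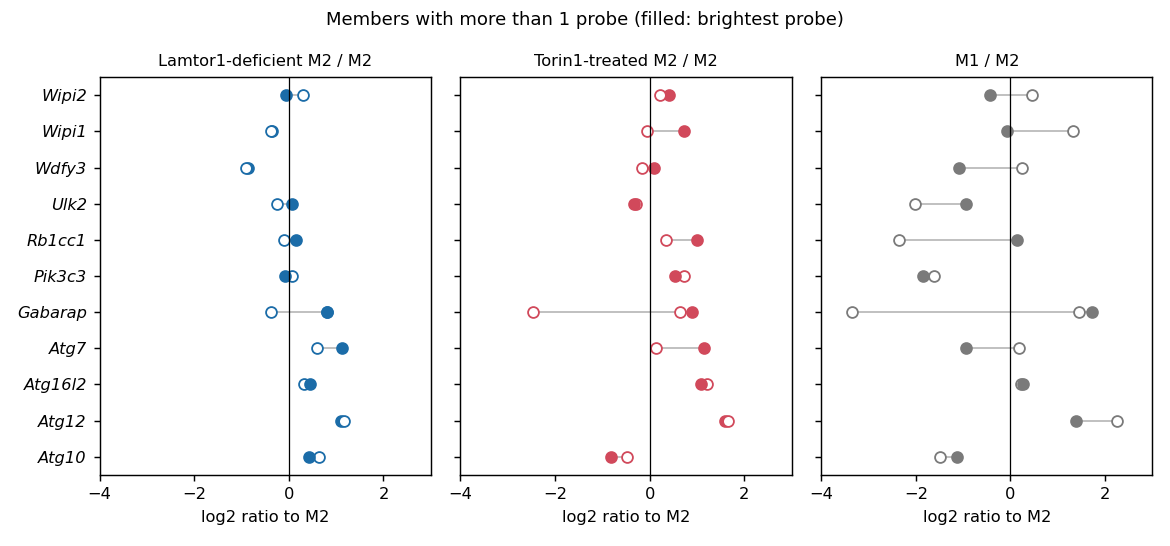
Log2 ratio to M2 (x axis) for each probe of the 11 genes with more than 1 probe (rows, filled circle for the brightest), in 1 panel per comparison, with the Gabarap probe that is not well above background in M1 drawn at its bound. Probes of a gene differed by 1 or more on the log2 scale for 1 gene after Lamtor1 loss, 2 after Torin1 and 6 in M1.

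Over the 11 genes with several probes, the median range between probes of a gene was 0.21 on the log2 scale after Lamtor1 loss, 0.25 after Torin1 and 1.07 in M1. The probes of a gene had opposite signs for 5, 3 and 6 of the 11 genes in that order. The M1 values of a single gene are thus the least settled by the choice of probe.

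Cargo receptors bind ubiquitinated or other cargo and hand it to LC3 and GABARAP proteins. Optn, with 1 probe (mm9 chr2:4954187-4954246, minus strand), had a normalized signal of 0.213 in M2, 2.19 in Lamtor1-deficient M2, 1.85 in Torin1-treated M2 and 2.41 in M1. The M2 array was low and the other 3 lay close to each other, 10.3-fold, 8.69-fold and 11.3-fold above it. Under 4 other scalings and background corrections its log2 ratio stayed at 2.78 or more after Lamtor1 loss, 2.56 or more after Torin1 and 2.67 or more in M1. Since only the M2 array was low, these 3 ratios rest on 1 measurement.

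Tax1bp1, a receptor for ubiquitinated cargo that takes part in the control of NF-κB, gave 12.8 in M2, 28.6 in Lamtor1-deficient M2, 40.1 in Torin1-treated M2 and 37.2 in M1. Here too M2 was the lowest array, and the others were 2.23-fold, 3.13-fold and 2.90-fold above it. The M1 value was 0.72 on the log2 scale with arrays centred on their medians. Its probe spans an intron.

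Calcoco1, a receptor for selective degradation of the endoplasmic reticulum, gave 0.619 in M2, 0.693 in Lamtor1-deficient M2 and 1.93 in Torin1-treated M2, and was not well above background in M1. It was 3.13-fold above M2 with Torin1 and at least 9.01-fold below in M1, a bound that depends on the background correction, since normexp gave a log2 ratio of -1.41. Nbr1, which binds ubiquitin and Sqstm1, gave 1.52 in M2, 1.53 in Lamtor1-deficient M2, 2.32 in Torin1-treated M2 and 8.11 in M1. The M1 array alone was high, 5.34-fold above M2.

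Sqstm1 (p62), which binds ubiquitinated proteins and is itself degraded by autophagy, gave 17.0 in M2, 22.0 in Lamtor1-deficient M2, 29.4 in Torin1-treated M2 and 32.1 in M1. M2 was the lowest array and no ratio reached 2-fold, with log2 values of 0.38, 0.79 and 0.92. Wdfy3 (Alfy), a large scaffold for the removal of protein aggregates, gave 1.07 in M2, 0.590 in Lamtor1-deficient M2, 1.14 in Torin1-treated M2 and 0.501 in M1. It was the receptor gene below M2 after Lamtor1 loss, with -0.85 and -0.90 for its probes. Its probes disagreed in M1, at -1.09 and 0.25, and with Torin1, at 0.09 and -0.16, where the first is about the technical SD. After Torin1 the other 5 receptor genes were above M2, as were 46.9% of all genes. The median of all 6 was 1.22, beside -0.06 over all genes. Wdfy3 was at -0.15 with arrays centred on their medians.

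Other genes of the pathway were read from 5 further lists, naming those 2-fold or more from M2 with a probe well above background on both arrays. A gene whose probe was well above background on 1 array only is named, outside the counts, where its bound passed 2-fold. The share of all genes with such probes that was 2-fold or more higher and lower was 7.97% and 7.47% after Lamtor1 loss, 11.2% and 13.3% after Torin1, and 24.3% and 25.8% in M1. With at most 16 genes in a list, nothing particular to a list can be read from its counts. Of 14 core autophagy genes with such a probe, 3 were higher and 0 lower after Lamtor1 loss, and 2 were higher and 1 lower after Torin1. Tecpr1, which takes part in autophagosome maturation, was at 2.31 without Lamtor1 and 2.39 with Torin1 on the log2 scale. Sh3glb1, which binds the PI3-kinase complex, and Tmem41b, a scramblase, were the others higher without Lamtor1, at 1.26 and 1.87. Wdr45, a PI3P-binding protein, was 1.01 above M2 after Torin1, and its relative Wdr45l was -1.20. Centring arrays on their medians moves every Torin1 ratio by -0.25. Wdr45 is then under 2-fold, and Tecpr2, at -0.996 before, passes 2-fold lower. Atg9b, not well above background in M2, was at least 2.18-fold higher in M1. Of the 14, 4 were higher in M1 (Sh3glb1 1.81, Atg13 1.28, Atg2b 1.27 and Atg4d 1.105) and 2 were lower (Wdr45 -1.93 and Tecpr2 -1.89). Centring arrays on their medians lowers every M1 ratio by the same amount, so the 4 higher genes were then under 2-fold, at 0.28 to 0.98, as did Rtn3, Tbk1, Tollip and Vamp8 of the lists that follow, at 0.48 to 0.64, while 9 further genes of the 5 lists passed 2-fold lower.

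A further list held 16 genes of selective autophagy, mostly receptors, though Tbk1, Pink1 and Park2 do not encode receptors. Fam134b, a receptor for the endoplasmic reticulum, was higher on both arrays, at 1.18 after Lamtor1 loss and 1.41 with Torin1 on the log2 scale. Rtn3, of the same kind, was higher after Lamtor1 loss at 1.06, and Ccpg1 after Torin1 at 1.75. Calcoco2 was lower in both, at -2.26 and -1.27, and Park2 was lower after Torin1 at -1.23. In M1, 4 of the 16 were higher (Bnip3 3.88, Rtn3 1.46, Tbk1 1.38 and Tollip 1.30) and 3 were lower (Ccpg1 -2.17, Stbd1 -2.003 and Pink1 -1.40).

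Of 14 genes of fusion with the lysosome, 0 were higher in the Lamtor1-deficient or Torin1-treated arrays. Rilp, an effector of the GTPase Rab7, was lower in both, with log2 ratios of -1.08 and -1.59, and Ykt6, a SNARE protein, was -1.20 after Torin1. In M1, 4 of these genes were lower (Stx17 -2.27, Vamp7 -1.86, Snap29 -1.61 and Rilp -1.26) and Vamp8 was higher at 1.31. Stx17, Snap29 and Vamp8 encode the SNARE proteins that join the autophagosome to the lysosome, so members of that set lay on both sides of M2.

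Of 8 transcription factors known to regulate autophagy genes, 5 had a probe of the listed name. Mitf, of the Tfeb family, was lower after Lamtor1 loss at a log2 ratio of -1.81 and in M1 at -1.43, and stood at -0.36 after Torin1. Foxo1 was 1.04 above M2 after Torin1, and under 2-fold there with arrays centred on their medians. Foxo3 and Atf4 were higher in M1, at 3.18 and 2.31.

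Of 12 inhibitors of mTORC1 and stress-linked regulators, 11 had a probe well above background on both arrays of the Torin1 comparison. Of these, 3 were lower after Torin1: Ddit4 (log2 ratio -2.21), Trp53inp2 (-2.09) and Sesn1 (-1.96). Sesn3, not well above background with Torin1, was at least 5.60-fold lower there. After Lamtor1 loss Tsc1 was higher at 1.20, and Dapk1 and Sesn3 were lower at -1.51 and -1.13. In M1, where 10 of the 12 had a probe well above background on both arrays, Ddit4, Sesn3, Bcl2l1 and Sesn2 were higher, at 3.82, 3.72, 3.18 and 2.91. Sesn1 and Dapk1 were lower there, at -4.29 and -1.48. Deptor and Tsc2, not well above background in M1, were at least 20.4-fold and 2.35-fold lower.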

How the data were processed

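The authors deposited Agilent Feature Extraction files of 4 arrays, with the processed signal of each spot as an intensity after background subtraction and correction of trends within the array, not normalized between arrays. The software version was 10.7.3.1 per the file headers and 10.5.1.1 per the labels. The deposited table of the whole series held the same processed intensity values, rounded. Control spots and spots marked as outliers (170 to 226 per array) were left out and spots of a probe were averaged. Signals were then raised to at least 1 and divided by the 75th percentile of the array, as the methods state, and put on the log2 scale. No spot was saturated. Where a probe was not well above background on 1 of the arrays compared, "at least" marks a bound, the brighter signal over the higher of the dim probe's own value and the lowest well above background (15.7 to 21.6 in processed signal, scaled).

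The members and the gene lists were chosen with earlier results of these data known. All members were described. Those 2-fold or more from M2 in a comparison, or with probes that disagreed, were given on all 4 arrays, and genes of other lists were named where 2-fold or more from M2 with a probe well above background on both arrays. Genes of these lists with such a probe on 1 array only were added as bounds where the bound passed 2-fold. A number of members within 2-fold are also given on all arrays, chosen after their values were seen. With 1 array per group there was no test. Alternatives were a shift to the array median, quantile normalization, the 75th percentile over bright probes, normexp background correction with an offset of 50, filters and a floor for dim probes, outlier spots kept, other rules for several probes of a gene, thresholds of 1.5-fold and 3-fold, and the series table. Positions of probes come from the array's own annotation (mm9), and whether a probe lies in coding sequence or a UTR was not determined. RefSeq tables of GRCm38.p6 gave gene names and promoter windows. The steps were tested on simulated data. Software used was Python 3.11.15 (pandas 2.3.3, NumPy 2.4.6, matplotlib 3.10.9) and R 4.3.3 (limma 3.58.1).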

Additional observations from a re-analysis of the deposited data

How the results depend on the processing

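No paired analysis was possible because each group has 1 array, and for the same reason no array could be left out. Of 111 counts and medians recomputed under the alternatives, 94 stayed within 1.5 times the reported count or within the technical SD of the reported median. Some of the 94 could hardly differ. All 32 genes were well above background on the 3 arrays of IL-4-stimulated cells, so filters and the floor could not change the values of those comparisons. The series table held the same intensities, rounded. The cause of the changes in the remaining values was not tested, apart from the thresholds, which change the counts by construction. A shift to array medians moved the median of all genes by 0.06 after Lamtor1 loss, -0.25 after Torin1 and -0.82 in M1. Quantile normalization moved it by -0.75 in M1 and normexp by 0.26 after Torin1. With the shift to array medians, 2 genes were 2-fold or more lower after Torin1 and the median of the 32 genes was 0.52. In M1 the same shift gave 4 higher and 10 lower, and the median turned to -0.44. Relative to the median of all genes, the median of the 32 genes was at 0.82 after Torin1 and -0.31 in M1 under the main scaling. A shift to array medians and the percentile over bright probes cannot change this difference, since each subtracts 1 constant per array on the log2 scale. The difference was 0.75 and 0.38 with quantile normalization, and 0.41 and -0.47 with normexp. With normexp, 1 gene was 2-fold or more lower after Lamtor1 loss, and the medians were 0.61 after Torin1 and 0.26 in M1. The median over all probes of a gene gave 0.64 after Torin1. At 3-fold, 1 gene was higher and 1 lower after Lamtor1 loss, 6 were higher after Torin1, and 5 were higher and 2 lower in M1. At 1.5-fold, 18 were higher and 2 lower after Torin1, and 8 were lower in M1. Under the 4 scalings and background corrections, 2-fold calls held for 3 of 4 higher and 1 of 2 lower genes after Lamtor1 loss, 7 of 10 and 1 of 1 after Torin1, and 4 of 9 and 3 of 5 in M1. The sign held for 27, 30 and 22 of the 32 genes in that order. Signal over background limits Calcoco1 in M1 to a bound.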
